A study of Homo sapiens with 13 samples.

Results

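The 10 genes described here are 6 matrix metalloproteinases (MMP7, MMP1, MMP13, MMP10, MMP9 and MMP14), the related secreted protease ADAMTS15, and the tissue inhibitors of metalloproteinases TIMP1, TIMP2 and TIMP3. They were taken by gene symbol from the 23637 symbols of the RNA tables, and all 10 were found. The cells were TE-7, an established human line labelled as esophageal epithelial and grown in RPMI medium with 5% FCS. RNA was sequenced from cells given IL-13 at 100 ng/ml and from control cells at 2, 6 and 24 hr, which gave 6 libraries of 1 per group. The histone marks H3K4me3, H3K9Ac and H3K27Ac were mapped by ChIP-seq in cells given IL-13 for 6 hr and in control cells, again with 1 library per group. All libraries come from 1 cell line. With 1 library in each group, a difference at a single time has no replicate check, and fewer cells that make a transcript cannot be told apart from less of it per cell.

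Matrix metalloproteinases are zinc-dependent proteases that are made as inactive pro-enzymes, opened by other proteases, and held in check by TIMPs, which bind the active site. They cut collagens and other matrix proteins and can release the outer domains of cell surface proteins, and in epithelia they take part in wound repair and tissue remodelling. IL-13 is a cytokine of allergic inflammation that acts on epithelial cells of the esophagus and airway.

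Levels are given as RPKM, reads per kilobase of transcript scaled to the mapped reads of the library, so they can be set side by side between genes. With IL-13 at 24 hr the order of the RPKM levels was MMP1 (409), MMP14 (209), MMP13 (163), TIMP1 (60.7), TIMP2 (25.97), MMP10 (25.3), MMP7 (9.43), TIMP3 (4.19), MMP9 (1.19) and ADAMTS15 (0.151). In the control at 24 hr it was MMP1 (537), MMP13 (404), MMP14 (223), TIMP1 (69.1), MMP10 (52.9), TIMP2 (32.7), TIMP3 (15.9), MMP9 (1.36), MMP7 (1.12) and ADAMTS15 (0.104). MMP7 thus stood above TIMP3 and MMP9 with IL-13 and below both in the control. MMP1 ranked 141 among all symbols with IL-13 and 112 in the control at that time, which places this collagenase among the most abundant transcripts of the cells. Without replicates, no spread exists to say which neighbours in either order differ.

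**Figure D1:**
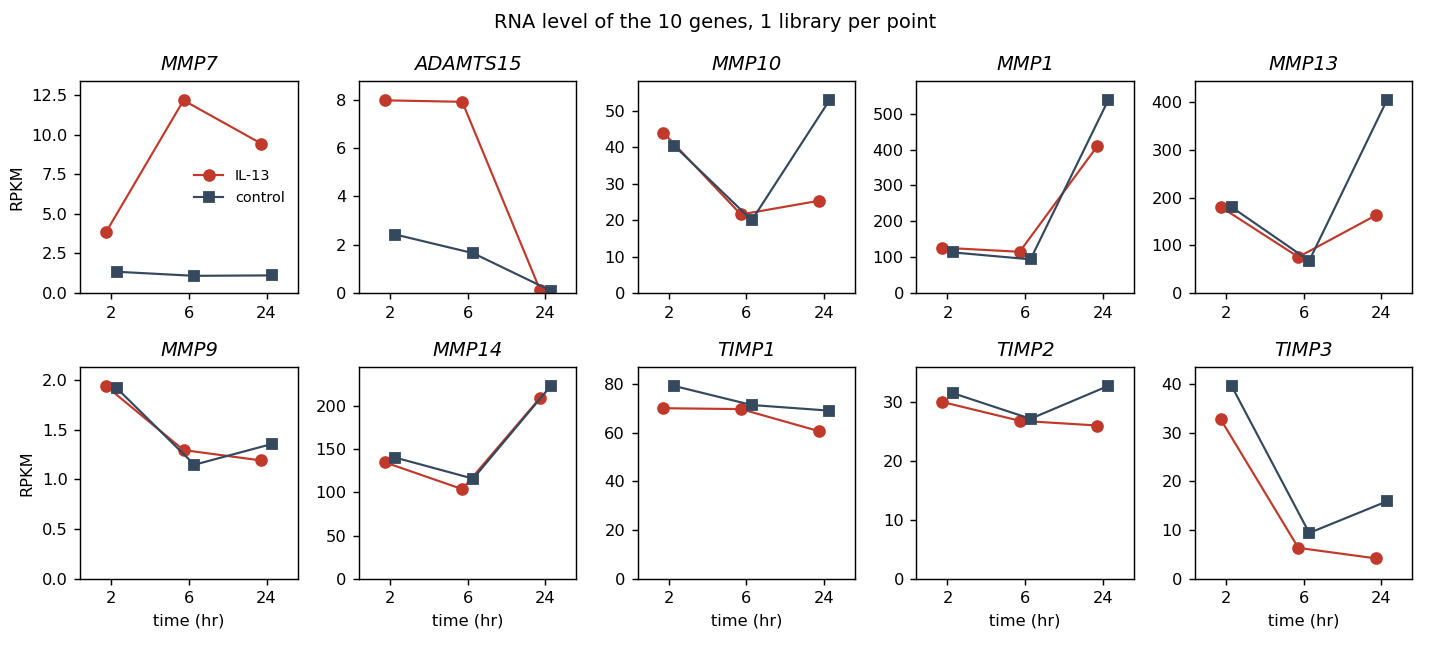
RNA level (RPKM, y axis from 0) of each of the 10 genes at 2, 6 and 24 hr (x axis, evenly spaced), with IL-13 (red circles) and in control cells (dark squares), 1 library per point and no error bars. MMP7 lies between 3.83 and 12.2 RPKM with IL-13 and between 1.09 and 1.35 RPKM in controls, while the TIMP3 point with IL-13 lies below the control point at each time.

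MMP7, the small epithelial matrilysin that lacks the hemopexin domain of most relatives, was higher with IL-13 at all 3 times. MMP7 (chromosome 11, 102391239 to 102401478, minus strand, hg19) was at 3.83 RPKM with IL-13 and 1.35 RPKM in the control at 2 hr, a ratio of 2.84. At 6 hr it was at 12.2 RPKM with IL-13 and 1.09 RPKM in the control, a ratio of 11.1. At 24 hr it was at 9.43 RPKM with IL-13 and 1.12 RPKM in the control, a ratio of 8.42. The 3 libraries with IL-13 all lay above the 3 controls, and the controls differed little over time. The controls at 2 and 6 hr hold some of the same data, so they are not separate and their closeness is partly built in. The rank of MMP7 among all symbols was 9194, 5702 and 7304 with IL-13 at 2, 6 and 24 hr, against 11325, 11667 and 12111 in controls. At 24 hr its levels stood for 132 reads per kilobase of transcript with IL-13 and 15.2 reads per kilobase in the control.

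ADAMTS15, a protease that cuts proteoglycans such as versican, was also higher with IL-13 at 2 and 6 hr, and was near 0 in both libraries at 24 hr. ADAMTS15 (chromosome 11, 130318869 to 130346539, plus strand, hg19) was at 7.97 RPKM with IL-13 and 2.42 RPKM in the control at 2 hr, a ratio of 3.29. At 6 hr it was at 7.91 RPKM with IL-13 and 1.65 RPKM in the control, a ratio of 4.79. The early libraries with IL-13 were nearly equal and both lay above all 3 controls, of which those at 2 and 6 hr hold some of the same data. At 24 hr ADAMTS15 was at 0.151 RPKM with IL-13 and 0.104 RPKM in the control, which stood for 2.11 reads per kilobase with IL-13 and 1.41 in the control, too few to compare.

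For a count over the 10 genes, a gene was taken as higher or lower when its log2 IL-13/control ratio, computed on RPKM + 0.1, was at least 1 in size and the higher library reached 1 RPKM. At 2 hr 2 of 10 genes passed as higher (MMP7 and ADAMTS15) and 0 as lower, beside 0.658% higher and 0.342% lower among the 12005 genes that reached 1 RPKM. At 6 hr the same 2 genes passed as higher and 0 as lower, beside 0.753% higher and 0.318% lower (1.07% in all) among 11958 genes. At 24 hr 1 of the 9 genes that reached 1 RPKM was higher (MMP7) and 3 were lower (MMP10, MMP13 and TIMP3), beside 0.886% higher and 1.27% lower (2.16% in all) among 12524 genes. The median log2 ratio of the genes that reached 1 RPKM was 0.01 at 2 hr, 0.13 at 6 hr and -0.33 at 24 hr, while that of all genes tested was 0.00, 0.00 and 0.02. The controls at 2 and 6 hr shared 359 identical values above 0 and no other pair of libraries shared any, so the ratios at 2 and 6 hr are not independent.

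**Figure D2:**
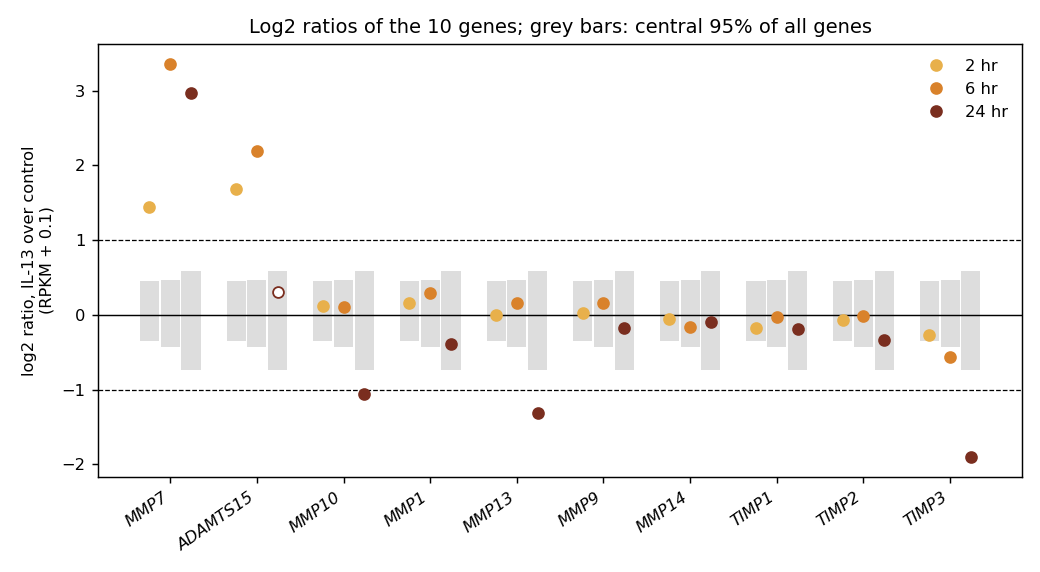
Log2 ratio of IL-13 to control RNA, on RPKM + 0.1 (y axis), of the 10 genes (x axis) at 2, 6 and 24 hr (light to dark points), with the central 95% of all genes tested as a grey bar at each time and dashed lines at 2-fold. The point of ADAMTS15 at 24 hr is open because no library reached 1 RPKM. MMP7 is above 2-fold at each time, and MMP10, MMP13 and TIMP3 are below -1 at 24 hr.

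Promoter sequences are shown for MMP7, which was higher with IL-13 at 24 hr, and for MMP10 and TIMP3, which were lower. Each is the 250 bases before the gene's start in RefSeq, on build GRCh38.p14, 5′ to 3′ on the gene's strand. Capitals mark matches, on either strand, to TGANTCA (AP-1), TATAAA (the TATA box), CTTTGAA (TCF/LEF) and TTC and GAA set 4 bases apart (STAT6), and no match overlaps another here.
MMP7 (chr11:102530748-102530997, minus strand): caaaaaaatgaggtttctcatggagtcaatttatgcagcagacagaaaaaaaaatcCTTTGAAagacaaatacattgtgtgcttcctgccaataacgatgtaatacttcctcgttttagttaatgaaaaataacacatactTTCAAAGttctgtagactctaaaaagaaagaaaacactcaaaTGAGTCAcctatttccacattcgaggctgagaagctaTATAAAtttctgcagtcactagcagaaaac
MMP10 (chr11:102780629-102780878, minus strand): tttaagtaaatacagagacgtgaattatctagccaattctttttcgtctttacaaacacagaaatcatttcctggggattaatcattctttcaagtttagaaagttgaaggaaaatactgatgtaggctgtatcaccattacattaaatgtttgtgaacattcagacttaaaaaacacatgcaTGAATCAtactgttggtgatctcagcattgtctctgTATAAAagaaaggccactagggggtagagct
TIMP3 (chr22:32801455-32801704, plus strand): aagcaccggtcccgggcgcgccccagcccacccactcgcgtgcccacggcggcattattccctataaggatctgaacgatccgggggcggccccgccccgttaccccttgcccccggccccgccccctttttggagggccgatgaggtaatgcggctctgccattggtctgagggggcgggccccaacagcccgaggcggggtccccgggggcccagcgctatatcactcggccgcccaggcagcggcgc

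MMP7 and MMP10 held an AP-1 match at the same place, from 67 to 61 bases before the start, read as TGAGTCA in MMP7 and as TGAATCA in MMP10. Both held TATAAA, from 30 to 25 bases before the start in MMP7 and from 31 to 26 in MMP10. MMP7 held CTTTGAA from 194 to 188 bases before the start and, on the other strand, from 109 to 103, and the other promoters read (MMP10, MMP14, TIMP1 and TIMP3) did not. None of these 5 held the STAT6 letters in this window, and MMP14, TIMP1 and TIMP3 held none of the 4 motifs. Of 35116 promoter windows of that length, 6.57% held the AP-1 letters, 10.7% TATAAA, 5.38% the STAT6 letters and 3.80% CTTTGAA. The G and C content was 33.6% in MMP7, 34.4% in MMP10 and 72.4% in TIMP3. A match describes the letters and does not show that a factor binds there.

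The collagenase MMP13 and the stromelysin MMP10 were lower with IL-13 at 24 hr and close to their controls before. MMP13, a collagenase that also cuts aggrecan, was at 180 RPKM both with IL-13 and in the control at 2 hr. At 6 hr MMP13 was at 75.7 RPKM with IL-13 and 67.9 RPKM in the control. At 24 hr MMP13 (chromosome 11, 102813721 to 102826463, minus strand, hg19) was at 163 RPKM with IL-13 and 404 RPKM in the control, 2.48-fold lower. The 24 hr control was the highest of the 6 libraries, and the 24 hr library with IL-13 lay within the range of the earlier times. By their low values, the libraries at 24 hr held 1 set of reads and the earlier ones 2 each. A difference between library sets thus cannot be told apart from one between times.

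MMP10, which cuts matrix proteins and can open other pro-enzymes, showed the same order of libraries at 24 hr. MMP10 (chromosome 11, 102641233 to 102651359, minus strand, hg19) was at 44.1 RPKM with IL-13 and 40.5 RPKM in the control at 2 hr. At 6 hr it was at 21.6 RPKM with IL-13 and 20.02 RPKM in the control. At 24 hr MMP10 was at 25.3 RPKM with IL-13 and 52.9 RPKM in the control, 2.09-fold lower, which stood for 355 reads per kilobase with IL-13 and 718 in the control. The 24 hr control was again the highest library, with the same limit on comparing times.

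MMP1, the interstitial collagenase, did not reach a 2-fold difference at any time. MMP1 (chromosome 11, 102660641 to 102668966, minus strand, hg19) was at 127 RPKM with IL-13 and 114 RPKM in the control at 2 hr. At 6 hr it was at 115 RPKM with IL-13 and 94.2 RPKM in the control. At 24 hr it was at 409 RPKM with IL-13 and 537 RPKM in the control. Its log2 ratios were 0.16, 0.29 and -0.39, so the sign at 24 hr was opposite to that of both earlier times. The sum of MMP1 and MMP13 at 24 hr was 572 RPKM with IL-13 and 941 RPKM in the control.

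MMP9, a gelatinase best known from leukocytes, and MMP14, a membrane-bound protease that opens pro-MMP2, were also within 2-fold at each time. MMP9 (chromosome 20, 44637547 to 44645200, plus strand, hg19) lay between 1.19 and 1.94 RPKM with IL-13 and between 1.15 and 1.92 RPKM in controls. At 24 hr its level stood for 16.7 reads per kilobase with IL-13 and 18.4 in the control, so a small difference was not detectable at this depth. MMP14 (chromosome 14, 23305793 to 23316803, plus strand, hg19) was at 135, 104 and 209 RPKM with IL-13 at 2, 6 and 24 hr and at 140, 116 and 223 RPKM in controls. Each library of MMP14 with IL-13 lay below its own control, by at most 0.16 on the log2 scale. These ratios lay within the central range of all genes tested at each time. Of all genes tested 49.2%, 51.5% and 45.4% lay below 0 at 2, 6 and 24 hr, so the shared sign is not read as an effect of IL-13.

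Among the inhibitors, TIMP3 had the largest difference. TIMP3 binds to the matrix and inhibits ADAM proteases as well as matrix metalloproteinases. TIMP3 (chromosome 22, 33196802 to 33259028, plus strand, hg19) was at 32.7 RPKM with IL-13 and 39.6 RPKM in the control at 2 hr. At 6 hr it was at 6.35 RPKM with IL-13 and 9.41 RPKM in the control. At 24 hr it was at 4.19 RPKM with IL-13 and 15.9 RPKM in the control, 3.80-fold lower, which stood for 58.7 reads per kilobase with IL-13 and 216 in the control. The log2 ratios were -0.27, -0.56 and -1.90, and the libraries with IL-13 at 6 and 24 hr were the lowest of the 6. At 2 hr the ratio lay within the central range of all genes tested, -0.35 to 0.45. At 6 and 24 hr it lay below the lower ends of that range, -0.43 and -0.74. Here too library sets and times cannot be told apart between 24 hr and before.

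TIMP1, a secreted inhibitor of most of these enzymes, and TIMP2, which also takes part in the opening of pro-MMP2 by MMP14, stayed within a narrow range. TIMP1 (chromosome X, 47441690 to 47446190, plus strand, hg19) lay between 60.7 and 70.1 RPKM with IL-13 and between 69.1 and 79.3 RPKM in controls. TIMP2 (chromosome 17, 76849059 to 76921472, minus strand, hg19) lay between 25.97 and 29.96 RPKM with IL-13 and between 27.1 and 32.7 RPKM in controls. Each library with IL-13 lay below its own control for both genes. The log2 ratios at 2, 6 and 24 hr were -0.18, -0.03 and -0.19 for TIMP1 and -0.07, -0.02 and -0.33 for TIMP2. All lay within the central range of all genes tested, -0.35 to 0.45, -0.43 to 0.47 and -0.74 to 0.59 at these times. Of all genes tested 49.2%, 51.5% and 45.4% lay below 0. The share below 0 at all 3 times was not computed, and the controls at 2 and 6 hr hold some of the same data. The shared sign is thus not read as an effect of IL-13. The ranges over times overlapped, and neither gene reached 2-fold. TIMP3 made up 4.61% of the summed RPKM of the 3 inhibitors with IL-13 at 24 hr and 13.5% in the control, and that sum was 90.9 RPKM with IL-13 and 118 RPKM in the control.

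Tests for each gene and time were deposited by the authors. At 6 hr the authors' deposited table has MMP7 at a log2 ratio of 3.48 (adjusted p = 1.75e-12) and ADAMTS15 at 2.26 (adjusted p = 3.72e-23). With the limit set at an adjusted p of 0.05, the authors' deposited table for 6 hr has 0.317% of all 23637 symbols higher and 0.0338% lower. At 24 hr the authors' deposited table has MMP7 at 3.06 (adjusted p = 6.18e-07), TIMP3 at -1.94 (adjusted p = 1.56e-13), MMP13 at -1.32 (adjusted p = 0.000235) and MMP10 at -1.08 (adjusted p = 0.000329), with 0.224% of symbols higher and 0.368% lower. At 2 hr none of the 10 genes passed in the authors' deposited table, with 0.00846% of symbols higher and 0.00423% lower, and the unadjusted p was 0.123 for MMP7 and 0.0926 for ADAMTS15. The labels list 1 library per group, and how the spread was estimated for those tests was not given there.

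The effect of IL-13 shared by the 3 times was estimated with limma on log2(RPKM + 0.1), with time as a term, over 11953 genes. MMP7 was higher by 2.59 ± 0.41 on the log2 scale (SE over 3 times, higher at 3 of 3), with an adjusted p of 0.177 by limma that ranged from 0.0376 to 0.639 over the alternatives. Without the pair at 2 hr its limma estimate was 3.16 ± 0.13, with an adjusted p of 0.0376. ADAMTS15 was at 1.39 ± 0.39 with an adjusted p of 0.235, and TIMP3 at -0.91 ± 0.35 with an adjusted p of 0.31, both by limma. Without the pair at 24 hr, where ADAMTS15 was near 0 in both libraries, the limma estimate of ADAMTS15 was 1.94 ± 0.15. In that fit TIMP3 was at -0.42 ± 0.09. The estimates of MMP10 and MMP13 turned sign, at 0.12 and 0.08 against -0.28 and -0.38 over all 3 times. For the other 7 genes the limma estimates lay between -0.38 and 0.02, with adjusted p-values of 0.328 to 0.996. Of all genes 0 passed an adjusted p under 0.05 in that limma fit, while 2025 had an unadjusted p under 0.05, and 6 passed by limma-trend. These p-values measure the spread over times, which for MMP10, MMP13, TIMP3 and ADAMTS15 includes the step between 24 hr and the earlier times. The controls at 2 and 6 hr hold some of the same data, which the fit took no account of. The 3 times are thus not independent repeats.

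TIMP3, MMP13 and MMP10 were lower at 6 than at 2 hr in both treatments. Their log2 ratios of 6 over 2 hr were -2.35, -1.25 and -1.03 with IL-13 and -2.06, -1.41 and -1.01 in controls. MMP10 was at the limit and lost its call with a pseudocount of 1, at -0.997 with IL-13 and -0.98 in controls. MMP7 was higher at 6 than at 2 hr with IL-13, at 1.64, against -0.28 in controls. With IL-13, 1 of 10 genes was thus higher and 3 lower, beside 0.522% higher and 2.90% lower (3.42% in all) of all genes tested. In controls 0 were higher and 3 lower, beside 0.200% and 2.36% (2.56% in all). The controls at 2 and 6 hr hold some of the same data, as their identical values show, so their ratios are not comparable with those of IL-13.

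From 6 to 24 hr the collagenases were higher in both treatments. By their low values, the libraries at 2 and 6 hr each held 2 sets of reads and those at 24 hr 1. A difference between library sets thus cannot be told apart from one between times. The log2 ratio of 24 over 6 hr was 1.83 with IL-13 and 2.51 in controls for MMP1, and 1.11 with IL-13 and 2.57 in controls for MMP13. It was 0.23 with IL-13 and 1.40 in controls for MMP10, and 1.01 with IL-13 and 0.94 in controls for MMP14. ADAMTS15 was at -5.00 with IL-13 and -3.10 in controls, sizes that rest on few reads at 24 hr and on the pseudocount. In each treatment 3 of the 10 genes were higher and 1 lower, beside 14.9% higher and 5.01% lower (19.9% in all) of all genes with IL-13, and 16.2% and 6.09% (22.3% in all) in controls. The median over all genes was shifted by 0.21 with IL-13 and 0.23 in controls. Centring on it gave 1336 genes higher and 990 lower with IL-13, where 1869 and 628 had been, and 1436 higher and 1191 lower in controls, where 2042 and 767 had been. After centring, MMP13 and MMP14 came under 2-fold with IL-13, at 0.90 and 0.80, and MMP1 was still higher.

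Markers of other cell types were read beside these results. The 8 epithelial markers all reached 1 RPKM, and their sum was 3793 RPKM with IL-13 and 3807 RPKM in the control at 2 hr, and 3753 RPKM with IL-13 and 3865 RPKM in the control at 6 hr. At 24 hr the sum was lower, at 3172 RPKM with IL-13 and 4637 RPKM in the control. Of the 8 markers 6 were then below 0, against 45.4% of all genes tested, with a median log2 ratio of -0.31 against 0.02. The 8 fibroblast markers summed to 2.33 to 3.96 RPKM with IL-13 and 2.76 to 5.00 RPKM in controls, and the 8 leukocyte and endothelial markers to 2.42 to 5.23 RPKM with IL-13 and 4.33 to 5.89 RPKM in controls. Of the epithelial markers, the keratin KRT14 passed 2-fold at 24 hr, at 137 RPKM with IL-13 and 287 RPKM in the control. The log2 ratio was -0.73 for KRT5, -0.60 for KRT19, -0.49 for KRT8, -0.13 for CDH1 and -0.01 for TP63. EPCAM and KRT18 went the other way, at 0.16 and 0.06. The part of these markers in the lower MMP10, MMP13 and TIMP3 at 24 hr was not tested. The control at 2 hr held brain transcripts: the 10 brain markers summed to 6.25 RPKM with IL-13 and 24.3 RPKM in the control, with 6 of 10 at 0 with IL-13 and 0 of 10 in that control. At 6 and 24 hr they summed to 6.31 to 6.68 RPKM with IL-13 and 7.05 to 8.01 RPKM in controls. Set against the control at 6 hr instead, the 2 hr log2 ratio was 1.72 for MMP7 and 2.20 for ADAMTS15. MMP10, MMP13 and TIMP3, lower at 6 than at 2 hr in controls, then also passed 2-fold, at 1.13, 1.41 and 1.79. The control at 6 hr also holds some of the data of that at 2 hr.

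MMP7, MMP10, MMP1 and MMP13 lie in a cluster of 9 MMP genes, all on the minus strand, that spans 435 kb of chromosome 11. Of these, 6 reached 1 RPKM in at least 1 library, and MMP7, at one end, was the 1 gene of them that was above 2-fold. At 24 hr the other 5 had log2 ratios below 0, at -1.31 for MMP13, -1.06 for MMP10, -0.39 for MMP1, -0.71 for the macrophage elastase MMP12 and -0.74 for the stromelysin MMP3. Of all genes tested at that time 45.4% lay below 0. MMP12 was at 16.1 RPKM with IL-13 and 26.4 RPKM in the control at 24 hr, where no earlier library exceeded 3.01 RPKM. That step cannot be told apart from one between library sets. MMP3 was at 0.468 RPKM with IL-13 and 0.847 RPKM in the control at 24 hr, under 1 RPKM, and as a close relative of MMP10 it could share reads with it. MMP8 and MMP20 did not exceed 0.00996 and 0.0377 RPKM in any library, and MMP27 was listed at 0 in each.

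**Figure D3:**
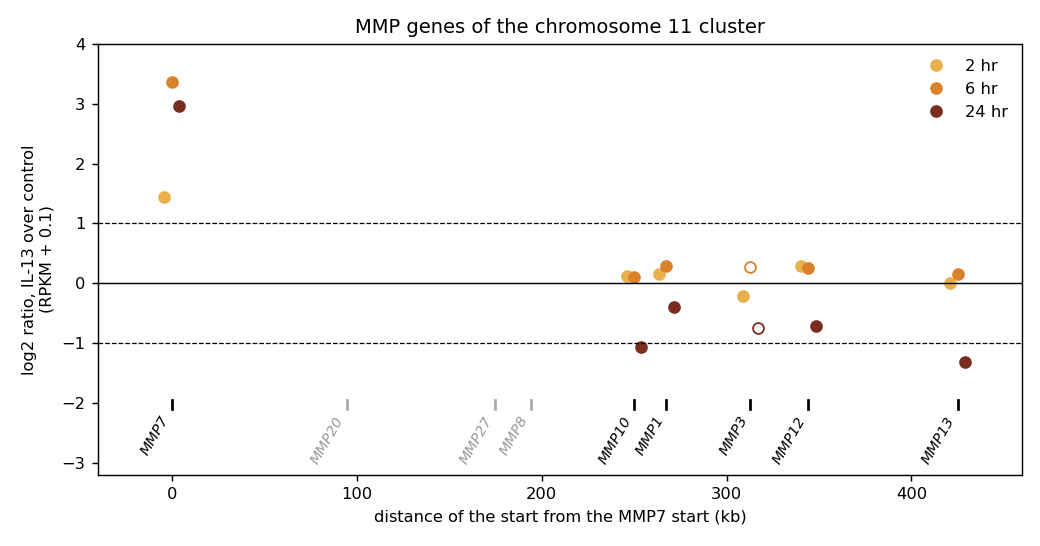
Log2 ratio of IL-13 to control RNA, on RPKM + 0.1 (y axis), for the MMP genes of the chromosome 11 cluster, placed by the distance of their start from the MMP7 start in kb (x axis), at 2, 6 and 24 hr (light to dark). Open points did not reach 1 RPKM at that time, and genes in grey reached it at no time and have no point. MMP7 lies at 1.44 to 3.36, and the other 5 genes with points lie below 0 at 24 hr, MMP3 as an open point.

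Histone marks were read at the hg19 starts of the genes. The authors' deposited table gives M, the rescaled log2 ratio of library 1 to library 2 of a mark, and A, the mean log2 level. Neither the headers nor the labels say which of the libraries was treated, so no direction of treatment is given. A peak was counted as different at an M of 1 or more in size, provided that the level worked out from both values reached 30 in either library.

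H3K27Ac, a mark of active promoters and enhancers, was listed at 8 of the 10 starts, and the MMP7 peaks differed most among those that reached the level. The common peak at the MMP7 start had M of -2.32 and a −log10 p of 27.07 in the authors' deposited table, which gives levels of 42.5 in library 1 and 212 in library 2. A second MMP7 peak, called in library 2 alone, had M of -3.22 in the authors' deposited table. The common peak of ADAMTS15 had M of -1 in the authors' deposited table, just at the limit, with levels of 19.97 in library 1 and 39.9 in library 2. Another ADAMTS15 peak, at -4.03 in the authors' deposited table, did not reach the level. So 3 of 9 peaks at the level differed, all higher in library 2, beside 5.04% of 12440 distinct peaks higher in library 1 and 3.71% in library 2 (8.75% in all).

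H3K27Ac at the other starts differed less. In the authors' deposited table M was 0.61 for MMP10 and 0.67 for MMP13, on the side of library 1, and -0.83 for TIMP3, -0.37 for TIMP2, -0.29 for TIMP1 and -0.03 for MMP14. MMP14 had the strongest peak of the 10 genes, at levels of 1189 in library 1 and 1214 in library 2, above 99.9% of all peaks of that mark. MMP1, despite its RNA level, and MMP9 had no listed peak of any of the 3 marks.

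H3K9Ac, another promoter acetylation, was listed at 6 starts and H3K4me3, the methylation of active promoters, at 4. For H3K9Ac 0 of 5 peaks at the level differed, beside 3.79% of 11968 peaks higher in library 1 and 3.59% in library 2 (7.39% in all). The authors' deposited table has M of -0.39 for MMP7, in a peak called in library 2 alone, and 0.93 for ADAMTS15. In the authors' deposited table M was 0.01 for MMP14, -0.03 for TIMP2 and -0.3 for TIMP1. The TIMP3 peak, called in library 2 alone and at -0.92 in the authors' deposited table, did not reach the level. For H3K4me3 1 of 4 differed, TIMP3 at -1.28 in the authors' deposited table, beside 6.02% of 9906 peaks higher in library 1 and 4.82% in library 2 (10.8% in all). MMP14, TIMP2 and ADAMTS15 were at -0.56, -0.84 and -0.88 for H3K4me3 in the authors' deposited table. MMP7, MMP10, MMP13 and TIMP1 had H3K27Ac but no listed H3K4me3 peak. The histone libraries with IL-13 are of 6 hr, not of 24 hr, the time of the lower RNA levels. For the histone controls no time is labelled.

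**Figure D4:**
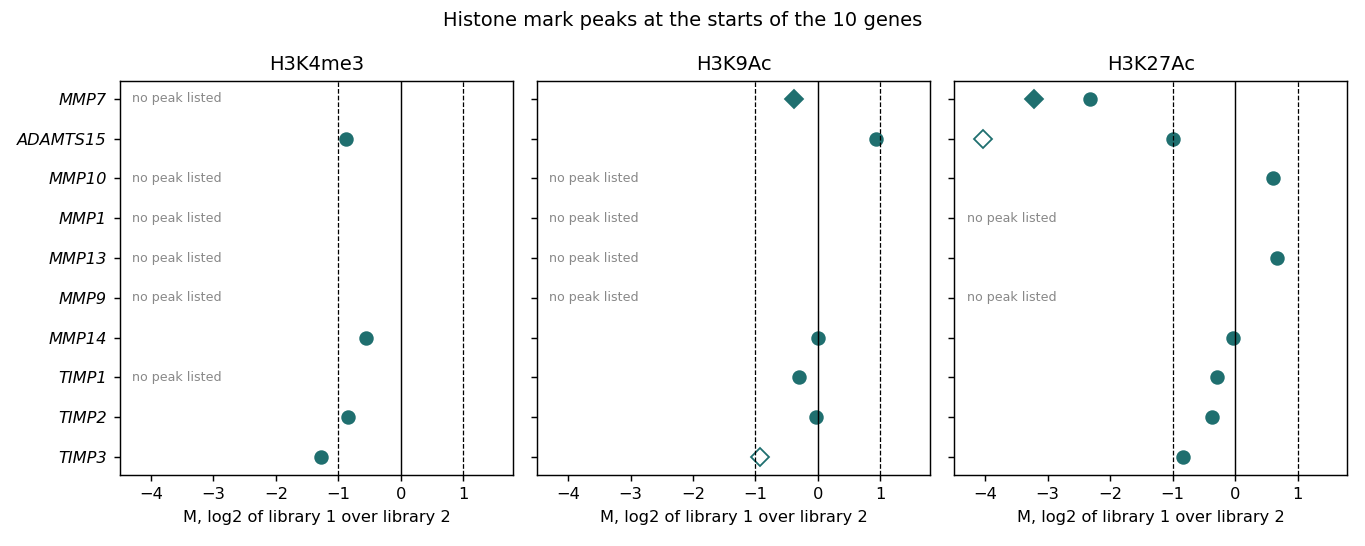
M, the authors' log2 ratio of library 1 to library 2 (x axis), of each peak listed at the starts of the 10 genes (rows) for H3K4me3, H3K9Ac and H3K27Ac, with dashed lines at 2-fold. Circles are peaks common to both libraries, diamonds peaks called in library 2 alone, and open symbols did not reach the level of 30. The MMP7 peaks of H3K27Ac lie at -2.32 and -3.22.

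Related genes were read from 7 lists. Of 18 other MMP genes, 7 reached 1 RPKM at 2 hr and 6 at each later time, and 0 passed 2-fold at any time. Their median log2 ratio was -0.08, -0.12 and -0.35, and at 24 hr 5 of 6 lay below 0, against 45.4% of all genes tested. Of the other inhibitors 2 were tested at each time, of the ADAM proteases 5 and of the other ADAMTS proteases 1, and 0 of them passed 2-fold. Of all genes tested, 1.00%, 1.07% and 2.16% passed at 2, 6 and 24 hr. A count of 0 among so few genes thus says nothing particular about these lists, the other MMP genes included. ADAM10, a sheddase of many surface proteins, was at 70.6 RPKM with IL-13 and 60.3 RPKM in the control at 24 hr. ADAM17, the sheddase of TNF that TIMP3 inhibits, was at 24.1 RPKM with IL-13 and 22.8 RPKM in the control at that time.

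Of 11 tested genes of pro-enzyme activation, 1 was lower at 24 hr, beside 1.27% of all genes tested. At the earlier times 0 differed, beside 1.00% of all genes tested at 2 hr and 1.07% at 6 hr. PLAT, the tissue plasminogen activator, was at 1.49 RPKM with IL-13 and 3.37 RPKM in the control at 24 hr, a log2 ratio of -1.12 that came to -0.81 with a pseudocount of 1. Of 7 tested MMP7 substrates and anchors 1 was higher, at 24 hr, beside 0.886% of all genes tested. The gene was CD44, a hyaluronan receptor that can hold MMP7 at the cell surface, at 335 RPKM with IL-13 and 143 RPKM in the control. Its earlier log2 ratios were 0.32 and 0.69. The other 6 lay below 0 at 24 hr, against 45.4% of all genes tested, and the median of the 7 was -0.17 against 0.02. Among the 6 was SDC1, a syndecan shed by MMP7, at 94.2 RPKM with IL-13 and 125 RPKM in the control.

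Of 20 transcription regulators of MMP genes, 18 were tested at 2 and 6 hr and 16 at 24 hr. RUNX2, a regulator of MMP13 in cartilage and bone, was the 1 that passed, as higher at 2 and 6 hr. Of all genes tested 0.658% were higher at 2 hr and 0.753% at 6 hr. The call of RUNX2 was lost with a pseudocount of 1 at both times. RUNX2 was at 3.15 RPKM with IL-13 and 1.44 RPKM in the control at 2 hr. It was at 3.92 RPKM with IL-13 and 1.90 RPKM in the control at 6 hr, while at 24 hr its log2 ratio was 0.89. JUN, a subunit of AP-1, had log2 ratios of -0.43, -0.65 and -0.53, and 13 of the 16 regulators tested at 24 hr lay below 0, with a median of -0.19, against 45.4% of all genes tested and a median of 0.02.

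**Figure D5:**
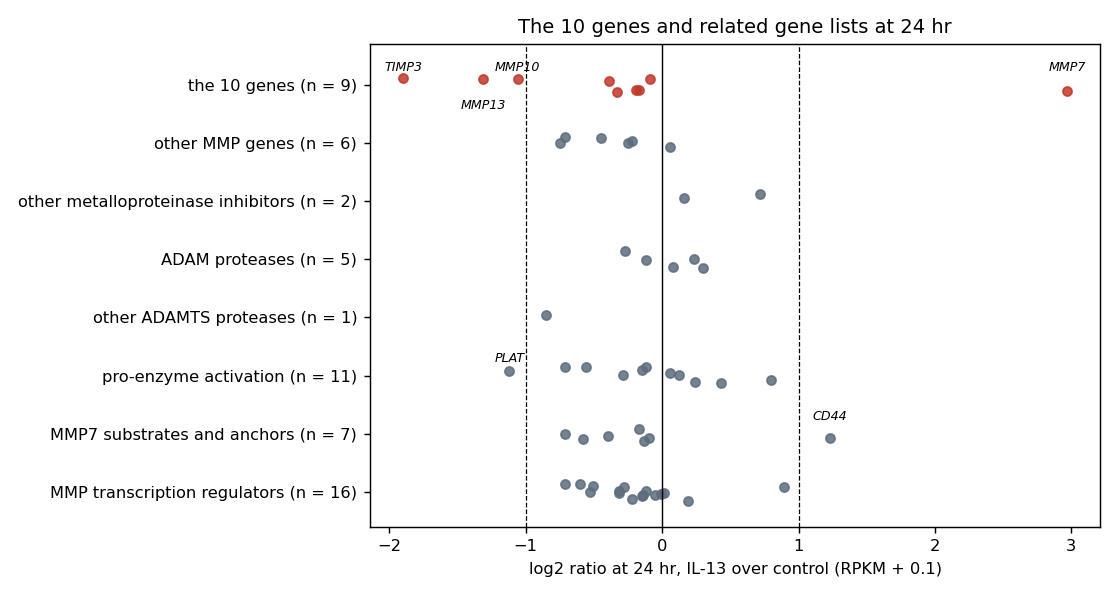
Log2 ratio of IL-13 to control RNA at 24 hr, on RPKM + 0.1 (x axis), of those of the 10 genes (red) and of the genes of 7 related lists (grey) that reached 1 RPKM at that time, 1 point per gene, spread vertically within a row, with dashed lines at 2-fold and n the genes shown. MMP7 and CD44 lie above 1, and TIMP3, MMP13, PLAT and MMP10 below -1.

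The genes with log2 ratios nearest to those of MMP7 were sought among 11478 genes of at least 300 bp that reached 1 RPKM at each time. By Euclidean distance over the 3 times they were SERPINB3 (1.01), SERPINB4 (1.16), HS3ST1 (1.35), LURAP1L (1.72) and HAS2 (1.79). SERPINB3, a serpin of squamous epithelium whose reads may be shared with its near-identical neighbour SERPINB4, had log2 ratios of 2.29, 3.78 and 2.60, against 1.44, 3.36 and 2.97 for MMP7. HAS2, a hyaluronan synthase, had 1.39, 2.45 and 1.43.

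Some of the 10 genes overlap others on the opposite strand, and whether reads were counted by strand is not stated. TIMP1 overlaps SYN1 and TIMP3 overlaps SYN3, both synapsin genes, and MMP1 overlaps the pseudogene WTAPP1. SYN1 was at most at 0.426 RPKM, in the control at 2 hr, SYN3 at most at 0.0608 RPKM and WTAPP1 at most at 0.555 RPKM, all far below the genes they overlap.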

How the data were processed

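The authors deposited RPKM values for 23637 gene symbols, per the file headers. Beside them stand their log2 ratios with p-values, raw and adjusted, as deposited. For peaks listed at transcription starts the authors deposited log2 values M and A with a −log10 p, per the file headers. For RNA, TopHat2 2.0.9 and DESeq are named, and for ChIP-seq Bowtie 1.0.0, MACS2 2.0.10.20130712 and DESeq, all on hg19 (GRCh37), per the submitters' processing notes. Read counting and annotation release were not given in the sources used here. Of the peak tables, 6 columns of raw reads were not used, and the input library was not analysed here.

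Log2 ratios on RPKM + 0.1 were computed from these. The 10 genes, the lists and the tests were chosen with earlier results of these data known. Named by rule were the 10 genes, their chromosome 11 cluster, up to 4 genes of a list past 2-fold and the 5 genes nearest to MMP7. ADAM10, ADAM17, SDC1 and JUN were picked after seeing their values, and the 2-fold brain and fibroblast genes are given as sums. Identical peak values within 20 kb were counted once. The limma fit, tested on simulated data, used genes with 1 RPKM in at least 3 libraries and Benjamini-Hochberg adjustment over all of them. Promoters are RefSeq's, on GRCh38.p14, where 5 of the 10 symbols were found, and these coordinates differ from hg19.

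Depth was read from genes of at most 150 bp, whose low values fell on multiples of fixed steps, within 0.5%, for 91.3% to 94.8% of values. The steps gave at 24 hr 14.0 M reads with IL-13 and 13.6 M for the control. At 2 and 6 hr each library had 2 steps, from 13.0 to 26.9 M reads, and the controls at 2 and 6 hr had 1 step (15.7 M reads) in common. Separate cultures are not stated in the labels, so p-values may measure technical spread. Python 3.11.15, pandas 2.3.3, NumPy 2.4.6, matplotlib 3.10.9, R 4.3.3 and limma 3.58.1 were used.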

Additional observations from a re-analysis of the deposited data

Results flagged for a closer look

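The sign of the log2 IL-13/control ratio at 24 hr was opposite to that at 6 hr in 4 of the 9 genes tested at both times (44.4%), near the 41.3% of all 11703 genes tested at both, so the count says nothing particular about these genes. With 1 library in each group, these differences between times were not tested. For MMP13 the log2 ratio at 24 hr minus that at 6 hr was -1.46, and for MMP10 it was -1.17. For MMP1 it was -0.68, and for MMP9, at low RPKM, it was -0.34, with both ratios inside the central 95% of all genes.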

How the results depend on the processing

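The calls of MMP7, ADAMTS15, MMP10, MMP13 and TIMP3 between treatments were kept at each time with a pseudocount of 1 and after centring. A pseudocount of 0.01, a minimum of 0.5 RPKM or none and a 1.5-fold limit can add calls but not remove them. These settings thus could not test those calls. Of the alternative log2 ratios of the 10 genes, those settings included, 187 kept their call and 3 were newly past 2-fold. All 3 came on setting IL-13 at 2 hr against the control at 6 hr, a choice made after seeing the data. MMP10 was then at 1.13, MMP13 at 1.41 and TIMP3 at 1.79, with 5 of the 10 genes higher, 423 of all genes and 15 genes of the lists called. For 6 over 2 hr the call of MMP10 was lost in both treatments with a pseudocount of 1, which left 2 of the 10 genes lower. The genes called in all at 2, 6 and 24 hr were 120, 128 and 270. They were 60, 64 and 155 with a pseudocount of 1, 201, 201 and 414 at 0.5 RPKM, 524, 444 and 839 with no minimum, and 297, 361 and 801 at 1.5-fold. Genes of the lists called were 1, 1 and 2, against 0, 0 and 1 with a pseudocount of 1, 4, 2 and 4 with no minimum, and 2 at 2 hr with 0.5 RPKM. Between 6 and 2 hr, all genes called were 413 with IL-13 and 307 in controls, against 259 and 201 with a pseudocount of 1 and 809 and 660 with no minimum. After centring, 1 of the 10 genes was higher from 6 to 24 hr with IL-13, where 3 had been. The limma fit gave 0 genes, against 7 higher with a pseudocount of 1 and 6 higher by limma-trend. Leaving out each time in turn gave 0 to 6 higher and 0 to 1 lower, and MMP7 passed without the pair at 2 hr. Peaks that differed were 3 for H3K27Ac, 1 for H3K4me3 and 0 for H3K9Ac, against 6, 3 and 1 at 1.5-fold, and 2, 0 and 0 at a level of 60, where ADAMTS15 and TIMP3 lost their calls. No paired analysis was possible because each group holds 1 library, beyond the term for time. The causes were not tested. At 24 hr depth limits MMP9 and ADAMTS15.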
